A study of Mus musculus with 6 samples.

Results

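E2F factors, the retinoblastoma family and the factors that drive mitotic transcription were examined in mouse prostate tumor cells after androgen withdrawal. There were 10 genes of interest: the activators E2f1, E2f2 and E2f3, the atypical repressors E2f7 and E2f8, the pocket protein genes Rb1, Rbl1 and Rbl2, and the mitotic factor genes Foxm1 and Mybl2. A gene was read from array rows annotated with its symbol and no other, and where several such rows existed the brightest over the 6 arrays was taken. In this way 9 of the 10 were measured among 30142 genes tested. Foxm1 was named only on a row that also carried a second symbol, 4933413G19Rik, and was not analysed here. The tested tumors were allografts of MCRedAL, a mouse prostate cancer line that carries the red fluorescent protein mCherry, grown in male mice. Degarelix, which blocks the pituitary receptor for gonadotropin-releasing hormone and so withdraws androgen, had been given to the mice of 3 tumors, and 3 tumors were untreated. The drug was injected under the skin once tumors measured about 500 mm2, the unit being that of the labels. Untreated tumors were termed castration sensitive and degarelix tumors Post-ADT by the submitters, and the titles of degarelix samples hold 7dPC, an abbreviation left unexplained. In both groups the cells were sorted as positive for mCherry and negative for CD45, F4/80 and CD11b, and their RNA was hybridised to Affymetrix MTA arrays, 1 per tumor. All tumors derive from 1 cell line, so the replicates measure the spread between tumors of that line only, and neither the host strain nor the time of sampling was known here.

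The deposited values were log2 expression, with array medians between 4.70 and 4.84. On each array 30.3% to 35.1% of genes exceeded the brightest of the background probe sets, whose maximum over the 6 arrays was 6.93. Each array was held against its own brightest background probe set, which read 6.59 to 6.93. Of 6 measured markers of prostate tumor epithelium, Krt8, Foxa1 and Hoxb13 lay above the background probe sets on all arrays and Krt18, Cdh1 and Epcam on none. The leukocyte and macrophage list of 7 genes averaged 5.62 to 5.69 on degarelix arrays and 5.57 to 6.82 on untreated arrays, with the highest value in untreated replicate 1. Ptprc, Adgre1 and Itgam, the genes of the antigens used for exclusion in the sort, lay below the brightest background probe set on all arrays. The fibroblast list of 7 genes averaged 8.09 to 8.83 on degarelix arrays and 7.65 to 7.98 on untreated arrays, with the highest value in degarelix replicate 3, and its members Dcn and Fbln1 rose. The endothelial list of 6 genes averaged 6.05 to 6.08 on degarelix arrays and 6.26 to 6.56 on untreated arrays, and its member Vwf fell. The lymphocyte list of 6 genes averaged 4.65 to 4.87 on degarelix arrays and 4.63 to 4.80 on untreated arrays. The part of these lists in the results below was not tested, beyond the values given.

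E2F factors switch on the genes of DNA synthesis as a cell leaves G1. Pocket proteins hold them in check until cyclin-dependent kinases phosphorylate the pocket proteins. The activators bind DNA together with a DP partner, whereas E2F7 and E2F8 bind it without one, are themselves products of E2F target genes and shut the same program down late in S phase. B-Myb, the product of Mybl2, joins the MuvB complex and, with FoxM1, turns on the genes of G2 and mitosis, while the pocket protein p130, encoded by Rbl2, joins MuvB in resting cells to repress them.

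After degarelix the atypical repressors, the pocket protein gene Rbl1 and Mybl2 were the members whose expression changed by most. Their changes on the log2 scale, degarelix minus untreated, were -1.19 for E2f7 (2.28-fold lower), -1.10 for Rbl1 (2.14-fold lower), -1.02 for Mybl2 (2.03-fold lower) and -0.92 for E2f8 (1.90-fold lower). The activators E2f2 and E2f3 were lower by less, while E2f1, Rb1 and Rbl2 did not pass the test. With limma and a threshold of 0.05 on the adjusted p, 6 of the 9 measured members fell and 0 rose, against 7.51% of all 30142 genes that fell and 4.19% that rose. At an unadjusted p under 0.05 the number of members that were higher was also 0. In 8 of the 9 every degarelix value lay below every untreated value, a pattern shown by 16.4% of all genes. The median change was -0.66 over the 9 members and 0.04 over all genes. Among the 8224 genes with a mean between 6 and 8, a range chosen after the members' levels were seen, 12.3% fell. In pooled cells such as these, fewer cells in the cell cycle and less of a transcript per cell cannot be told apart.

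Promoter sequences are shown for 5 of the 6 members that fell, all but E2f2, and for E2f1 and Rbl2, so that letters known from cell cycle promoters can be compared between them. They come from RefSeq on build GRCm38.p6, which gave 10 windows for 8 members, each from 250 bases before a start to 50 after it, and none matched Rb1. Capitals mark letters found on either strand from 4 sets of letters. The first is the 8-base E2F set TTTNNCGC with C or G at each N. The second is a 7-base E2F set, TTNNCGN with C or G at each N, which was added after the 8-base result was seen and finds every 8-base match too. The third is the cell cycle genes homology region (CHR) letters TTTGAA and TTCGAA, at which MuvB complexes bind. The last is CCAAT, the letters of the NF-Y box. E2f2 and E2f3 each had 2 windows, of which 1 of E2f3 is printed. Each line gives the 120 bases that end just before the start, or for E2f7 also 56 bases around a match farther upstream, 5′ to 3′ on the strand of the gene.
E2f7, chr10:110745319-110745438, plus strand: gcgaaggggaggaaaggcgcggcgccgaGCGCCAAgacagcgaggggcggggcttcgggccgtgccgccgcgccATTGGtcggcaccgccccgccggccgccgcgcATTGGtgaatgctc
E2f7, chr10:110745213-110745268, plus strand: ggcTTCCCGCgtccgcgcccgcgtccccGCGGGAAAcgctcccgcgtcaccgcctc
E2f8, chr7:48881597-48881716, minus strand: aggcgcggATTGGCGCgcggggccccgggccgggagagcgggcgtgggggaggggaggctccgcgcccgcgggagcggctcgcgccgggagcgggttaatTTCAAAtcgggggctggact
Rbl1, chr2:157204535-157204654, minus strand: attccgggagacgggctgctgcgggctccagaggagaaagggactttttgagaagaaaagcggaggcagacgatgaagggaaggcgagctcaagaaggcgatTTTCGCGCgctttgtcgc
Mybl2, chr2:163054515-163054634, plus strand: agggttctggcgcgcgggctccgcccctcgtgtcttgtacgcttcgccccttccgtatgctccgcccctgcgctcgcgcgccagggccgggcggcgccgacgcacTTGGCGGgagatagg
E2f3, chr13:29986064-29986183, minus strand: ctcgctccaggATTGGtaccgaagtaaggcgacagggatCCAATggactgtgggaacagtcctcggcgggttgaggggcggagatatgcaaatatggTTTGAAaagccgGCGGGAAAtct
E2f1, chr2:154569427-154569546, minus strand: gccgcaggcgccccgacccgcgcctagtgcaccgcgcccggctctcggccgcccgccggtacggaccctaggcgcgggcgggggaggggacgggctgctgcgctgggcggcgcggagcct
Rbl2, chr8:91069937-91070056, plus strand: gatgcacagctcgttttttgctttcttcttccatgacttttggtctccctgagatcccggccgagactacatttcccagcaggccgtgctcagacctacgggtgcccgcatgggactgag

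Rbl1 held the 8-base letters 18 bases before its start, E2f3 11 bases and E2f7 198 bases before it, each counted to the match's leftmost base. Mybl2 held no 8-base match but had TTGGCGG 15 bases before its start. In E2f8 the 7-base TTGGCGC began 111 bases before the start and overlapped a CCAAT match on the other strand, and CHR letters lay 20 bases before it. One of the E2f2 windows held the 8-base letters 39 bases after the start, and the other held CHR letters 31 bases before it. None of the 4 sets was found in the E2f1 window, nor in the E2f3 window that is not printed. Rbl2 had CHR letters alone, 201 bases before its start. Over the 8 members with a window, 4 held the 8-base letters, 6 the 7-base letters, 4 the CHR letters and 4 CCAAT. Of the 17970 tested genes with a window, 3.17% held the 8-base letters in at least 1 window, 23.9% the 7-base letters, 19.9% the CHR letters and 41.6% CCAAT. Counted by window, the shares were 2.26%, 17.8%, 19.2% and 37.4% of all 32851 in the table. A match is only a run of letters, and its absence says only that those letters are not in that window.

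Promoter letters were also set beside the changes of other genes. Among tested genes outside the 10, 117 of the 566 with the 8-base E2F letters in a window fell (20.7%) and 20 rose (3.53%). Among the 17396 with a window but without those letters, 6.31% fell and 5.15% rose. With the 7-base letters 12.2% of 4281 genes fell, against 5.05% of 13681 without them. CHR letters, with or without the other sets, separated the genes less, with 7.91% of 3567 genes lower with them and 6.47% of 14395 without. For CCAAT the shares were 7.79% of 7470 genes with it and 6.02% of 10492 without. These shares are descriptions, were not matched for base composition or level, and were not tested.

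The atypical repressors were lower on every degarelix array. E2f7 read 5.66, 5.77 and 5.65 in degarelix replicates 1, 2 and 3, against 6.47, 7.07 and 7.09 in untreated replicates 1, 2 and 3 (log2). E2f7 averaged 5.69 ± 0.06 with degarelix and 6.88 ± 0.35 untreated (SD, n = 3 each), a change of -1.19 (SE 0.15, limma adjusted p = 0.00211). The groups did not overlap, the gap between them was 0.71, and untreated replicate 1 was the low one of its group. E2f7 lay above the background probe sets on 2 of the 6 arrays, so the size of its fall is less certain. E2f8, the close relative of E2f7, read 6.43, 6.71 and 6.45 with degarelix, against 7.08, 7.69 and 7.59 in untreated tumors. E2f8 changed by -0.92 (SE 0.16, limma adjusted p = 0.00736), again with no overlap and with untreated replicate 1 lowest in its group. Its call was lost in the test against a 1.2-fold change (limma adjusted p = 0.0508). E2f8 lay above the background probe sets on 4 of the 6 arrays.

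The activators spread over a range of responses. E2f2 read 6.18, 6.26 and 6.09 in degarelix tumors, against 6.78, 6.98 and 6.75 in untreated tumors. E2f2 fell by 0.66 (SE 0.09, 1.58-fold, limma adjusted p = 0.00212), with the groups 0.48 apart. It lay above the background probe sets on 2 of the 6 arrays and on no degarelix array, so the size of its fall is less certain. E2f3, which encodes an activator long known as a dose-sensitive driver of proliferation, had 2 rows of its own. Its brighter row, whose identifier is marked as unmapped, read 7.26, 7.35 and 7.18 with degarelix, against 7.47, 7.87 and 8.08 untreated. The groups were 0.11 apart and the untreated tumors spread widely, with an SD of 0.31 against 0.09 with degarelix. On that row E2f3 fell by 0.54 (SE 0.14), which passed narrowly (limma adjusted p = 0.0422). The call was lost under 10 of 16 alternative settings, among them leaving out any degarelix array or untreated replicate 2 or 3 (adjusted p = 0.0843 to 0.134). The second E2f3 row changed by -0.44 (SE 0.11), with 7.00, 7.11 and 7.13 in degarelix tumors and 7.30, 7.57 and 7.69 in untreated tumors. Tested among all 65956 rows in limma, the adjusted p was 0.054 for the second row and 0.0751 for the brighter one.

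E2f1, the founding activator and itself a target of E2F factors, showed little difference. It read 7.18, 7.17 and 7.23 in degarelix tumors, against 7.48, 7.36 and 7.27 in untreated tumors, above the background probe sets on all 6 arrays. The groups did not overlap, but the gap was 0.04. E2f1 changed by -0.18 (SE 0.08), which missed the threshold (limma adjusted p = 0.184), with a 95% interval of -0.35 to -0.003 before adjustment. A fall of the size seen for E2f7, E2f8, Rbl1 or Mybl2 lay outside that interval.

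**Figure D1:**
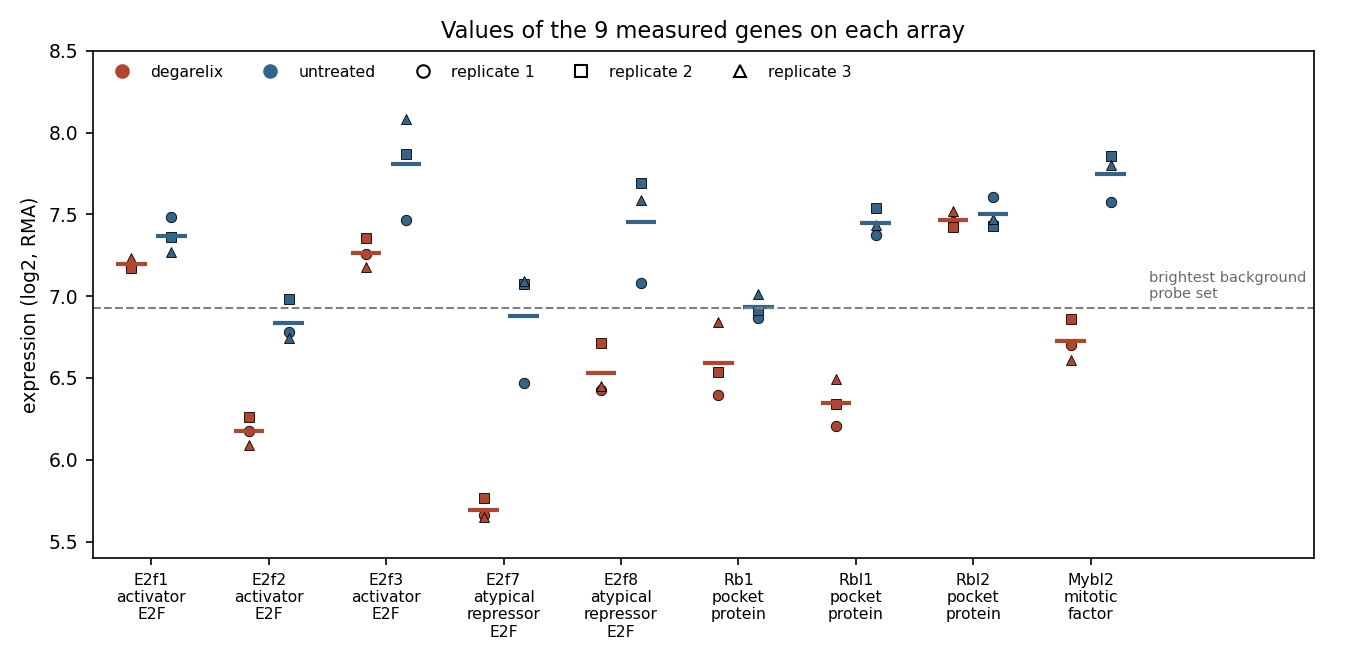
Expression (log2, RMA) of the 9 measured genes on each array, with degarelix points left of untreated points, marker shapes for replicates 1 to 3 and horizontal bars for group means. The dashed line marks the brightest background probe set at 6.93, and Rbl2 is the gene whose groups overlap.

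The 3 pocket protein genes responded unequally. Rbl1, which encodes p107 and is a textbook E2F target, read 6.21, 6.34 and 6.49 with degarelix, against 7.37, 7.54 and 7.44 untreated. It fell by 1.10 (SE 0.09, limma adjusted p = 2.53e-04), and its gap of 0.88 between groups was wider than that of any of the other 8 measured members. Rbl2 read 7.45, 7.43 and 7.52 in degarelix tumors, against 7.61, 7.43 and 7.47 in untreated tumors, so the groups overlapped. Its change of -0.04 (SE 0.07, limma adjusted p = 0.768, 95% interval -0.21 to 0.13) changed sign under cyclic loess (0.01), quantile normalization (0.03) and without untreated replicate 1 (0.02). Within arrays, the change of Rbl1 less that of Rbl2, each set against its own untreated mean, was -1.19, -1.03 and -0.97 with degarelix and -0.18, 0.16 and 0.02 untreated.

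Rb1, the retinoblastoma tumor suppressor gene, lay between them. It read 6.40, 6.54 and 6.84 in degarelix tumors, against 6.86, 6.92 and 7.02 in untreated tumors, with a gap of 0.02. Rb1 changed by -0.34 (SE 0.11), short of the threshold (limma adjusted p = 0.0918), and lay above the background probe sets on 3 of the 6 arrays. Degarelix replicate 3 was the high one of its group, and it was also the array with the highest fibroblast list, at 8.83 against 8.33 and 8.09 in degarelix replicates 1 and 2. Without that array Rb1 changed by -0.47 and passed (limma adjusted p = 0.0187). The dimmer rows of Rb1 averaged 3.92 and 2.88 with degarelix and 3.95 and 2.94 untreated, below the brightest background probe set. Their changes were -0.03 and -0.06.

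Mybl2, which encodes B-Myb, read 6.70, 6.86 and 6.61 with degarelix, against 7.57, 7.86 and 7.80 untreated. It fell by 1.02 (SE 0.10, limma adjusted p = 5.46e-04), with the groups 0.71 apart. Its values exceeded the background probe sets on all 3 untreated arrays and on degarelix replicate 2.

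**Figure D2:**
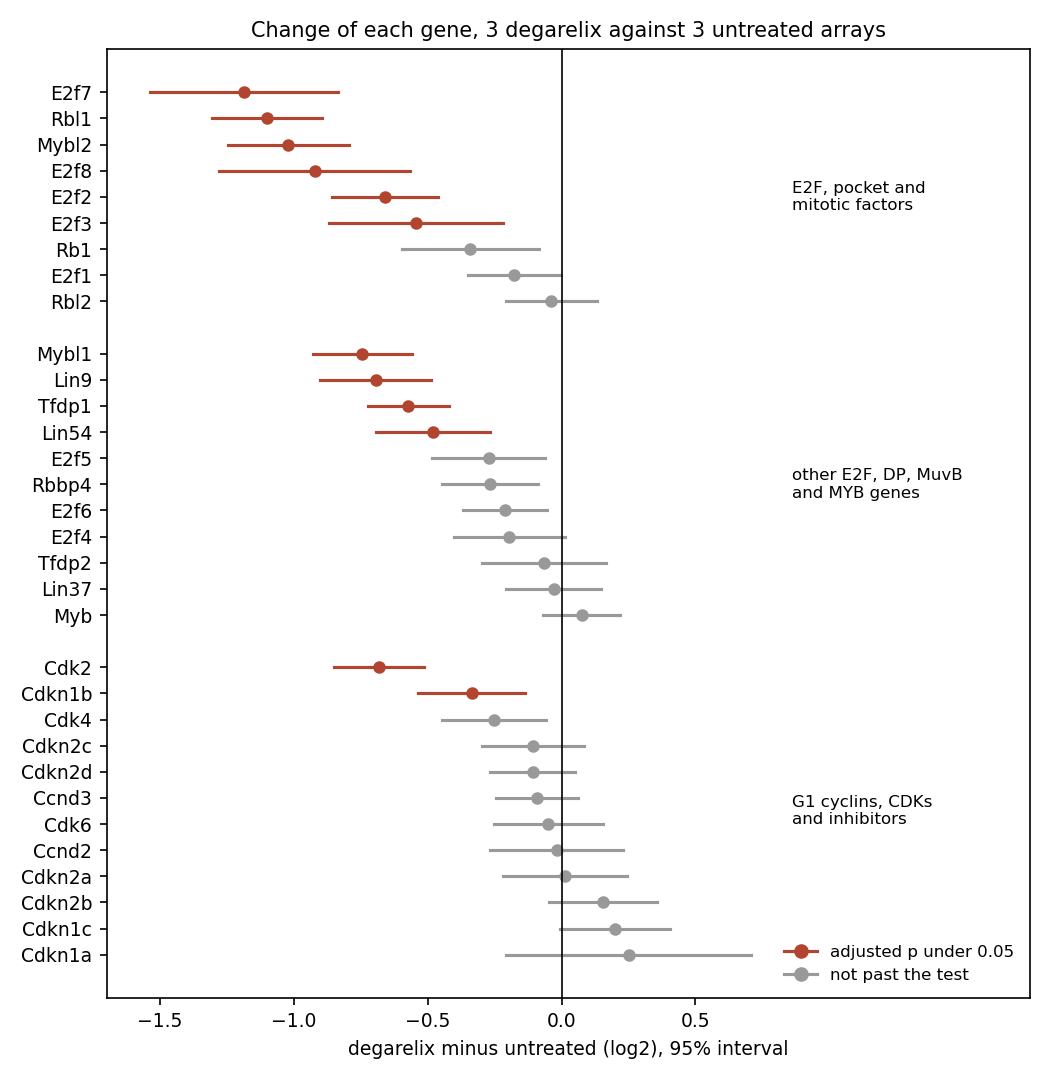
Change of each gene (degarelix minus untreated, log2) with its 95% interval from limma, for the 9 measured members, the other E2F, DP, MuvB and MYB genes, and the G1 regulators. Red marks an adjusted p under 0.05, and E2f7, Rbl1, Mybl2 and E2f8 lie farthest left.

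Ordered by change, the members ran from E2f7 through Rbl1, Mybl2, E2f8, E2f2, E2f3, Rb1 and E2f1 to Rbl2. Each gene's 95% interval overlapped that of the next. Such overlap is not a test of the difference between 2 genes, and the order of neighbours was not tested. When each gene was set against its own untreated mean, the 3 activators averaged -0.47, -0.41 and -0.50 on degarelix replicates 1, 2 and 3, and -0.09, 0.07 and 0.03 on untreated replicates 1, 2 and 3. The atypical repressors averaged -1.12, -0.93 and -1.12 with degarelix and -0.39, 0.22 and 0.17 untreated. The activator average less the repressor average was therefore 0.65, 0.52 and 0.61 with degarelix, against 0.30, -0.15 and -0.14 untreated. The repressors thus lay further below their untreated mean than the activators did on all 3 degarelix arrays, without overlap of the groups in this difference. For E2f1 alone against the repressors the difference was 0.93, 0.73 and 0.98 with degarelix and 0.50, -0.23 and -0.28 untreated, for E2f2 it was 0.46, 0.35 and 0.37 against 0.34, -0.07 and -0.26, and for E2f3 it was 0.57, 0.48 and 0.49 against 0.05, -0.15 and 0.10. The narrowest separation was that of E2f2, where untreated replicate 1 came within 0.02 of degarelix replicate 2. No test was made of these differences, because the genes were chosen with results known.

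**Figure D3:**
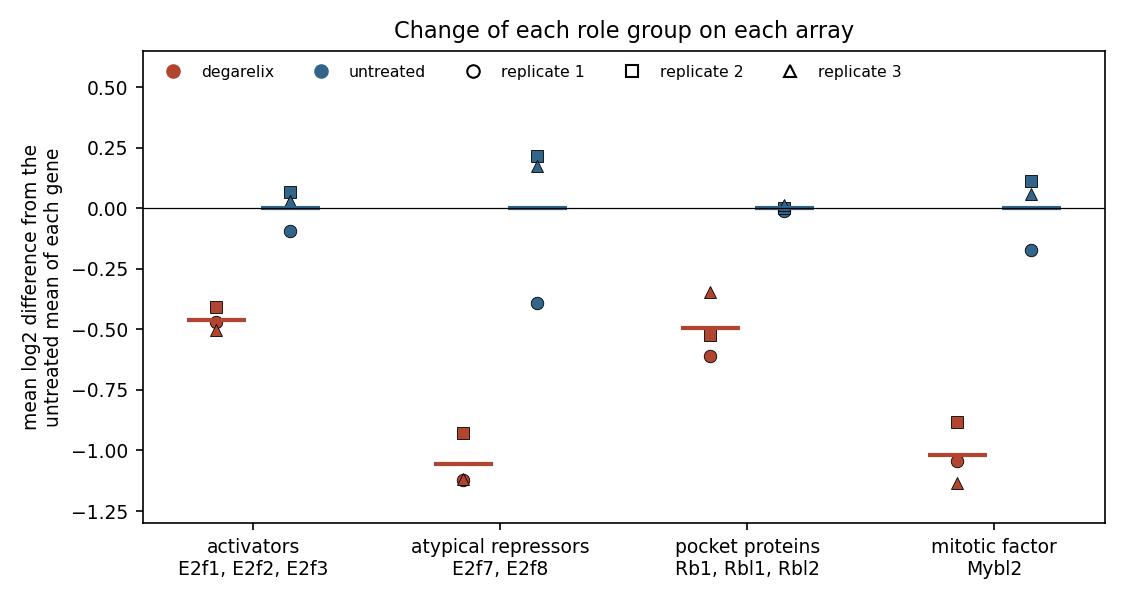
Mean log2 difference from each gene's untreated mean, for 4 role groups on each array, with degarelix points left of untreated points and bars for group means. The atypical repressors and Mybl2 average near -1.06 and -1.02 with degarelix, the activators and pocket proteins near -0.46 and -0.49.

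Untreated tumors differed among themselves in some of the same genes. Untreated replicate 1 was the lowest of its group for 6 of the 9 measured members, against 39.3% of all genes, and the 9 together deviated by -0.14 from their group means there. For E2f7, E2f8 and E2f3 its values were 0.60, 0.51 and 0.40 below the lower of the other untreated tumors. E2f1 and Rbl2 were instead highest there. The same array had the highest leukocyte and macrophage list, 6.82 against 5.57 and 6.07 in untreated replicates 2 and 3, with Lyz2 at 9.02 against 6.26 and 7.65. Left out, it moved the changes away from 0 for E2f7 to -1.39, for E2f8 to -1.11 and for E2f3 to -0.71. That of E2f1 moved toward 0, to -0.12. The part of that list in the members' values was not tested.

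Other genes of the E2F and MuvB machinery were read in the same way. Of 11 measured partners 4 fell (36.4%) and 0 rose, against 7.51% and 4.19% of all 30142 genes. Their median change was -0.27, and 0 were higher at an unadjusted p under 0.05. Tfdp1, the main DP partner of E2F factors, read 9.69, 9.75 and 9.71 with degarelix, against 10.23, 10.28 and 10.34 untreated. It fell by 0.57 (SE 0.07, limma adjusted p = 0.0012), whereas Tfdp2, the other DP gene, changed by -0.07 (adjusted p = 0.701). Tfdp2 lay below the brightest background probe set on every array, so its lack of change is less certain. The MuvB subunit genes Lin9 and Lin54 fell, with changes of -0.69 and -0.48, while Lin37 of the same complex changed by -0.03 (adjusted p = 0.827). With untreated replicate 3 left out, Lin54 no longer passed (limma adjusted p = 0.0542). Lin9 lay below the brightest background probe set on every array. Mybl1, a relative of Mybl2, fell by 0.74 at levels of 4.33 with degarelix and 5.07 untreated, also below that probe set. The repressor E2F genes did not pass the test: E2f4, which carries most pocket protein binding in resting cells, changed by -0.19 (limma adjusted p = 0.219), E2f5 by -0.27 (0.0992) and E2f6 by -0.21 (0.0879). Without untreated replicate 1 E2f4 changed by -0.29 and Rbbp4, a histone chaperone gene of MuvB, by -0.34, and both passed (limma adjusted p = 0.0275 and 0.0164). Without degarelix replicate 3 E2f5 passed, at -0.37 (limma adjusted p = 0.0215). E2f6 lay below the brightest background probe set on every array.

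Of 12 measured G1 cyclins, kinases and inhibitors 2 fell (16.7%) and 0 rose, against 7.51% and 4.19% of all 30142 genes. Their median change was -0.07, and 0 were higher at an unadjusted p under 0.05. Cdk2, the kinase partner of E-type cyclins, read 6.81, 6.82 and 6.88 in degarelix tumors, against 7.41, 7.57 and 7.58 in untreated tumors, and fell by 0.68 (limma adjusted p = 8.24e-04). Cdkn1b, which encodes the inhibitor p27, fell by 0.34 (limma adjusted p = 0.042), a call lost under 9 of 16 alternative settings, among them median centring (adjusted p = 0.0584). Its values too lay below the brightest background probe set on every array. The kinase genes Cdk4 and Cdk6, which phosphorylate pocket proteins with D-type cyclins, changed by -0.25 and -0.05 (adjusted p = 0.0973 and 0.75). Without untreated replicate 1 Cdk4 was lower, at -0.33 (limma adjusted p = 0.0194). Without the same array the inhibitor gene Cdkn1c, at 0.20 over all arrays, rose by 0.28 (limma adjusted p = 0.0438). Cdkn1c lay below the brightest background probe set on every array, so this rise is less certain. The inhibitor genes Cdkn1a and Cdkn2a changed by 0.25 (95% interval -0.21 to 0.71) and 0.01 (95% interval -0.22 to 0.25), and neither passed. Ccnd1 had no row of its own and was not analysed here.

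All 28 measured G1/S targets and all 27 measured G2/M targets fell by limma at the same threshold, with median changes of -1.17 and -1.57. These lists came from textbook roles and largely repeat genes whose fall was already known here, so their counts are no independent support. The largest p of the G1/S list was that of the replication gene Gins2 (adjusted p = 0.0448), and that of the G2/M list was that of the phosphatase gene Cdc25b (0.031). Changes were -2.03 and -1.99 for the ribonucleotide reductase genes Rrm2 and Rrm1, -1.83 for Ccne2, which encodes an E-type cyclin, and -1.65 for Cdc45, part of the replicative helicase (adjusted p = 7.21e-05 to 9.41e-05). Among G2/M targets the changes were -2.20 for Nusap1, a spindle protein gene, -1.56 for the checkpoint kinase gene Bub1, -1.39 for Cenpe, a motor of kinetochores, and -1.20 for Aurka, a kinase of centrosomes (adjusted p = 5.68e-05 to 9.44e-05). Bub1, Cenpe and Cdc25b were below the brightest background probe set on all 6 arrays. Rrm1, Rrm2, Ccne2, Nusap1 and Aurka were below it on every degarelix array. The sizes of the changes of all these genes are less certain. The median of the 9 measured members, -0.66, lay closer to 0 than either median. Averaged per array against each gene's untreated mean, the G1/S list stood at -1.31, -1.06 and -1.25 with degarelix and -0.20, 0.14 and 0.07 untreated, and the G2/M list at -1.72, -1.32 and -1.67 and at -0.20, 0.14 and 0.05. Untreated replicate 1 was thus the low untreated array for both lists, as it was for E2f7 and E2f8, and degarelix replicate 2 the highest of the degarelix arrays for both. The promoter letters differed between the lists. The 8-base E2F letters were in a window of 11 of 24 G1/S targets with a window (45.8%) and of 1 of 23 G2/M targets (4.35%), and CHR letters in 3 (12.5%) and 17 (73.9%), against 3.17% and 19.9% of the 17970 tested genes with a window.

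**Figure D4:**
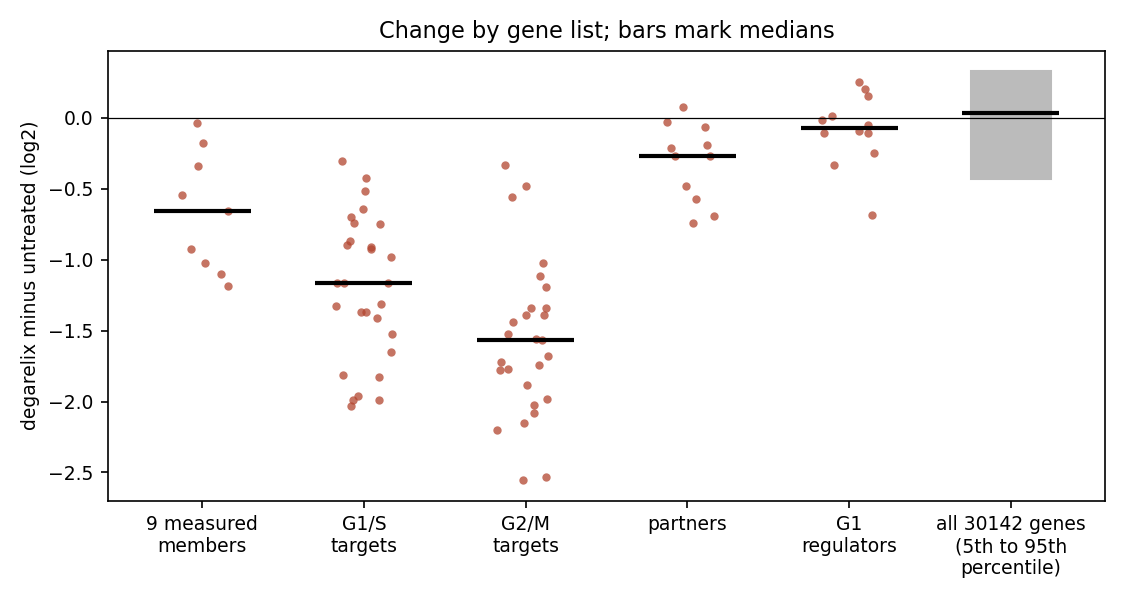
Change (degarelix minus untreated, log2) of each gene in 5 lists, with bars at the medians, beside the span from the 5th to the 95th percentile of all 30142 genes. G1/S and G2/M targets lie wholly below 0, with medians of -1.17 and -1.57, and the G1 regulators centre near -0.07.

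The genes with the most similar profiles were sought among 13282 genes outside the 10 with a mean of at least 6, by the root mean square difference of values centred over the 6 arrays. For Mybl2 these were Uhrf1, Dlgap5 and Tcf19, with differences of 0.03, 0.05 and 0.05. For E2f7 they were Fam83d, Chaf1b and Ska3 (0.04, 0.06 and 0.09), for E2f8 Haus1, Rfc5 and Gm7879 (0.06, 0.07 and 0.08) and for Rbl1 Kif4, Mthfd1l and Mis18a (0.07, 0.08 and 0.08). For E2f2 they were Incenp, Donson and Cdca3 (0.05, 0.05 and 0.06), and for E2f3 Gm10169, Lyar and Tcof1, each at 0.05. As background, Uhrf1 maintains DNA methylation, Chaf1b assembles chromatin, Rfc5 belongs to the clamp loader of replication, Incenp to the chromosomal passenger complex and Kif4 to the motors of mitotic chromosomes. The closest to E2f1 were Ccdc68, Hdac10 and Zkscan3 (0.02 to 0.03), to Rb1 n-R5s107, Gm14401 and Mboat2 (0.04 to 0.05) and to Rbl2 Xxylt1, Gm16068 and Cadm4 (0.01 to 0.02). All 15 genes close to E2f2, E2f7, E2f8, Rbl1 and Mybl2 fell in limma, with changes from -1.24 to -0.62, and none of the 6 close to E2f1 and Rbl2 passed. Close to E2f3, Tcof1 fell while Gm10169 and Lyar did not pass (limma adjusted p = 0.0547 and 0.0511). Close to Rb1, n-R5s107 fell (limma adjusted p = 0.047) while Gm14401 and Mboat2 did not pass. Because likeness was measured over the same 6 arrays, the shared direction follows from the choice.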

How the data were processed

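RNA of sorted tumor cells was hybridised to Affymetrix MTA arrays. Per the submitters' processing notes, the deposited log2 values were made by the authors with Affymetrix Expression Console and RMA, with no version or setting named. RMA corrects background, brings arrays to 1 distribution and compresses changes of dim genes. Of 72688 rows, 6732 controls were left out. Of 65956 transcript clusters, 30604 had 1 gene symbol, 2146 several and 33206 none. Entrez identifiers served to update 827 symbols to those of RefSeq. The brightest cluster of each of 30142 genes was tested.

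The groups were compared by limma 3.58.1 in R 4.3.3 (two-sided test, Benjamini-Hochberg adjustment over the 30142 genes, threshold 0.05), with a script tested on simulated data. The number of arrays limits precision. Intervals are those of limma, unadjusted. The members and lists were chosen with earlier results of these data known. Named were all members, the partners and G1 regulators that passed or were set by name, the 4 G1/S and G2/M targets with the smallest adjusted p, and the 3 closest profiles per member. Promoters were searched in Python 3.11.15. Alternatives covered scaling, variance model, array weights, filters, cluster choice, the replicate number, a fold threshold and leaving out arrays.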

Additional observations from a re-analysis of the deposited data

How the results depend on the processing

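E2f2, E2f7, Rbl1 and Mybl2 kept their direction and their calls under all 16 alternatives, with changes of -0.71 to -0.59, -1.39 to -1.08, -1.17 to -1.03 and -1.11 to -0.96. The number of members that fell ranged from 4 to 7 of 9, and 0 rose under any of them. E2f1 passed under none, its adjusted p being 0.0539 or higher. Beyond the losses given above, E2f3 missed the threshold under cyclic loess (adjusted p = 0.054), quantile normalization (0.0602), median centring (0.0622) and against a 1.2-fold change (0.615). Rbl2 turned to 0.007 (cyclic loess), 0.033 (quantile normalization) and 0.015 (without untreated replicate 1), with a range of -0.074 to 0.015 over single arrays left out, always short of the threshold. Rb1 passed with gene-by-gene array weights (adjusted p = 0.00596).

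Over all genes, 4860 fell and 5052 rose with gene-by-gene array weights, 508 fell and 241 rose against a 1.2-fold change, and 691 rose with median centring. Leaving out single arrays gave 966 to 3253 falls and 624 to 1651 rises, the fewest of both without degarelix replicate 1. The falls also numbered 1113 without degarelix replicate 2, 1350 without untreated replicate 2 and 1183 without untreated replicate 3, and the rises 720, 763 and 789 without these arrays in the same order. Of the partners 7 fell with array weights, E2f4, E2f5 and Rbbp4 in addition. Of the G1 regulators 1 fell when every cluster was tested, with median centring, against a 1.2-fold change and with a replicate block, 1 to 2 fell without single arrays, and 0 to 1 rose without single arrays and 1 with array weights (Cdkn1c). Why these counts moved was not tested. Same-numbered arrays had correlations of their deviations from the group means of 0.16, 0.04 and 0.20. Arrays of different numbers had -0.17 to 0.03, so each array correlated best with its own number. No label says whether the numbers pair animals, so pairing stayed undecided and was left out of the chosen fit. With the replicate block 7 members fell, Rb1 included (adjusted p = 0.0435), and 2371 genes fell and 1435 rose. The second E2f3 row and the 7-base letters were chosen after seeing the data. Brightness over background limits E2f2, E2f7, E2f8, Rb1, Rbl1, Mybl2 and the dim partners, G1 regulators and targets named above.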
